A study of Sus scrofa domesticus with 4 samples.

Results

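Genes of 9 proteins were followed in pig uterine muscle (myometrium) kept in culture with or without orexin B. These proteins cut the extracellular matrix, activate plasminogen or hold matrix-cutting enzymes in check. They are the matrix metalloproteinases (MMPs) MMP1, MMP2, MMP3 and MMP9, the plasminogen activators PLAU and PLAT, and the tissue inhibitors of metalloproteinases TIMP1, TIMP2 and TIMP3. Probes were taken as members where the array's RefSeq mRNA accession belongs to one of these genes in the pig gene table, and all such probes were used. This gave 18 of 43603 probes, covering 8 of the 9 genes, and 17 of the 18 were bright enough to test. No probe matched TIMP3 by this rule, and that gene was not analysed here.

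Orexin B is a neuropeptide ligand of the orexin receptors, and the series asked how it acts on gene expression in the myometrium in early pregnancy. The tissue came from 4 mature gilts (Large White x Polish Landrace, 7 to 8 months old, 120 to 130 kg) on days 15 to 16 of gestation. Slices 3 mm thick were preincubated for 2 h and then kept for 24 h in culture medium with 10 nM orexin B, or for the same time without treatment. Both groups are cultured explants of intact animals, which hold every cell type of the slice. Cultures were made in duplicate in 4 experiments, and each of 4 arrays set treated against untreated RNA in 2 colours, with orexin B RNA in Cy5 on arrays 1 and 3 and in Cy3 on arrays 2 and 4. The labels do not state whether both RNAs of an array came from the same gilt, and the spread that a p-value rests on is that of the 4 arrays alone. Ratios divide the orexin B value by the untreated one and are given as log2, so that 1 is a doubling, and every ± is the moderated standard error (SE) over 4 arrays unless an SD is named.

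MMPs are zinc-dependent enzymes that are secreted or membrane-bound as inactive precursors and cleave collagens, proteoglycans and basement membrane proteins. Plasmin, made from plasminogen by PLAU (urokinase) or PLAT (tissue-type activator), degrades fibrin and matrix and activates several MMP precursors, and TIMPs bind the active site of MMPs and block it. In the uterus these enzymes are known for tissue remodelling during the cycle, implantation, pregnancy and involution after birth. MMP1 is an interstitial collagenase, MMP3 (stromelysin) cleaves proteoglycans and other matrix proteins and can activate other MMPs, and MMP2 and MMP9 are the gelatinases.

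The arrays limit what can be said of any gene. Of 19879 tested probes, 0% (0 probes) had an adjusted p under 0.05 (limma with Benjamini-Hochberg adjustment over all tested probes), while 1534 (7.72%) had an unadjusted p under 0.05 and 1528 (7.69%) also reached 1.2-fold. The smallest adjusted p was 0.596. Between 37.6% and 58.2% of probes were well above background in a channel. The ratios of 2 arrays correlated over probes, which are no replicates, at r between -0.18 and 0.36. The labelled tissue was checked against smooth muscle genes. All 9 with a probe matched by RefSeq accession (among them ACTA2, CNN1 and DES) were bright enough to test. All 9 had a mean ratio below 0. Their median was -0.49, and the medians by array were 0.0035, -1.13, 0.16 and -1.21. This split followed the dye orientation: the median was 0.08 over arrays 1 and 3 (treated RNA in Cy5) and -1.10 over arrays 2 and 4 (in Cy3), and 8 of the 9 genes had an unadjusted limma p under 0.05 for that difference. In bulk tissue, fewer cells of a type and less RNA per cell cannot be told apart.

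Of the 8 measured genes, 6 had a mean above 0, against 53.7% of the 1979 genes with a tested probe. None of the 8 passed the adjusted threshold in limma, as for all probes. MMP3 and MMP9 had an unadjusted p under 0.05 with a change of at least 1.2-fold, both higher; this was 2 of 8 genes, against 10.5% of all genes in either direction and 6.27% higher, and 0 of 8 were lower, against 4.24%. By probe it was 3 of 17 higher, against 4.29% of tested probes higher and 3.4% lower. The 3 were the MMP3 probe and both MMP9 probes, so they stand for the same 2 genes. Each gene is represented here by its probe with the highest mean intensity. All 4 arrays had the same sign for MMP3 and MMP9, or 2 of 8 genes against 15.5% of all genes (16% of tested probes). The median ratio of the 8 genes was 0.14, beside 0.017 over all genes.

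**Figure D1:**
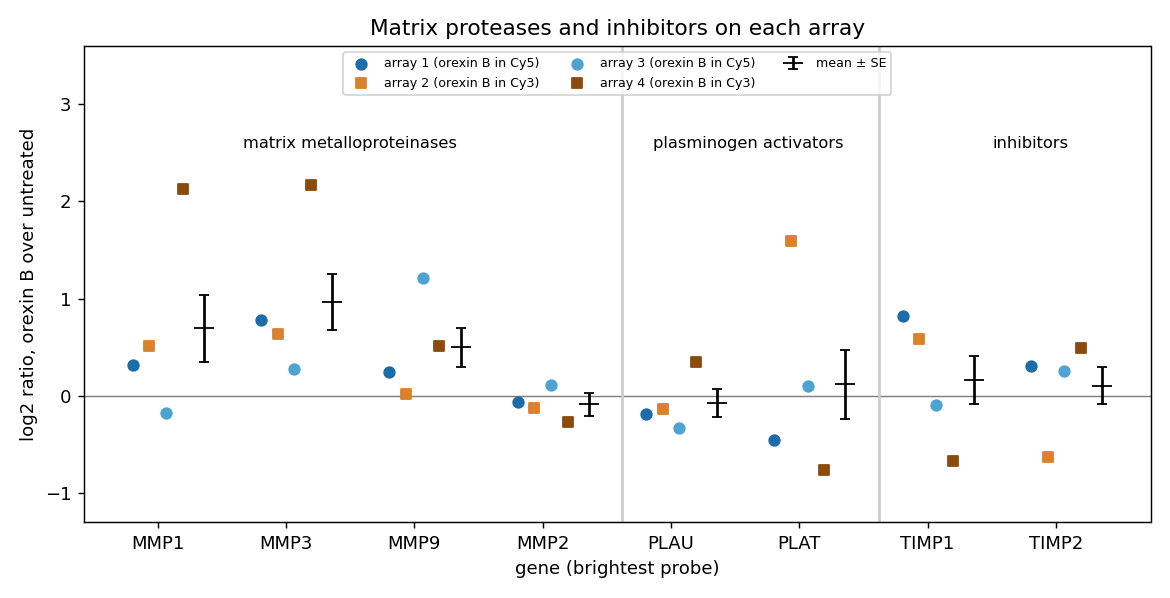
Log2 ratio of orexin B over untreated (vertical axis) for the 8 measured genes, with 1 point per array, circles for orexin B in Cy5 and squares for Cy3, and the mean with its SE in black. MMP1 and MMP3 are highest on array 4 at 2.13 and 2.17, MMP9 on array 3 at 1.21 and PLAT on array 2 at 1.59, and the MMP2 points lie between -0.27 and 0.11.

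MMP3 had the highest mean of the 8. Its log2 ratios on arrays 1 to 4 were 0.78, 0.64, 0.28 and 2.17. All 4 lay above 0, and the ratio of array 4, 4.51-fold, stood well above the others. The mean was 0.97 ± 0.29, or 1.95-fold (95% interval of the log2 ratio 0.28 to 1.65, limma unadjusted p = 0.0125, adjusted p = 0.596). Its mean ranked 10th of 1979 genes from the highest. Without array 4 the mean was 0.56, with an unadjusted limma p of 0.0134. With arrays centred on their median in place of loess it was 0.80 (limma unadjusted p = 0.117), and with the channels fitted separately the limma unadjusted p = 0.0945. MMP3 also missed the unadjusted threshold without moderation of the variances, so that it leaves the count of 2 genes in these 3 fits. The gene has 1 probe matched by RefSeq accession. The gene table lists MMP10, a close relative, as another name of pig MMP3, so the probe may read either. This was not tested.

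The normalized log2 intensity of MMP3 in untreated slices was 12.56, 13.74, 12.19 and 12.71 on arrays 1 to 4. With orexin B it was 13.34, 14.38, 12.47 and 14.88. The ranges overlapped, because untreated slices on array 2 were already brighter than treated slices on arrays 1 and 3. The spread between untreated slices (SD 0.67) was of the same order as the mean difference. The mean level was 13.77 with orexin B and 12.80 without. On each array the orexin B channel was also brighter than the untreated channel.

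MMP1, the collagenase, had log2 ratios of 0.31, 0.51, -0.18 and 2.13 on arrays 1 to 4. Array 4 was again the highest, at 4.39-fold, and array 3 was below 0. The mean was 0.70 ± 0.34 (95% interval -0.11 to 1.5, limma unadjusted p = 0.0811, adjusted p = 0.677). Without array 4 it was 0.22. Without array 3 it was 0.99, with an unadjusted limma p of 0.0312. The unadjusted limma p was also under 0.05 with dye as a further term (0.0313) and with slide as a random block (0.0133). MMP1 enters the count of genes at this threshold in these fits. Untreated levels of MMP1 were close to each other, at 16.09, 15.95, 15.59 and 15.52 (log2 intensity, SD 0.28), and treated levels were 16.40, 16.46, 15.41 and 17.65 (SD 0.92). The treated slices therefore differed among themselves far more than the untreated ones, and array 4, highest when treated, was the lowest when untreated. On array 4, MMP3 and MMP1 ranked 6th and 8th from the highest among the 1979 genes.

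MMP1 and MMP3 were the pair with the closest ratios. The root mean square difference between their 4 ratios was 0.33, the smallest for any pair of the 8 genes. The next pair, MMP2 and PLAU, lay at 0.385. MMP1 and MMP3 were both highest on array 4 and lowest on array 3, but arrays 1 and 2 came in opposite order. MMP3 exceeded MMP1 on every array, by 0.47, 0.12, 0.45 and 0.04. Both genes lie next to each other in the pig gene table, with 0 protein-coding genes between them, and the next gene after MMP3 is MMP12, the macrophage elastase, which had ratios of 0.98, 0.81, -0.45 and 2.37. MMP12 lay at 0.40 from MMP3 and 0.41 from MMP1. Whether probes of these related genes share signal was not tested.

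**Figure D2:**
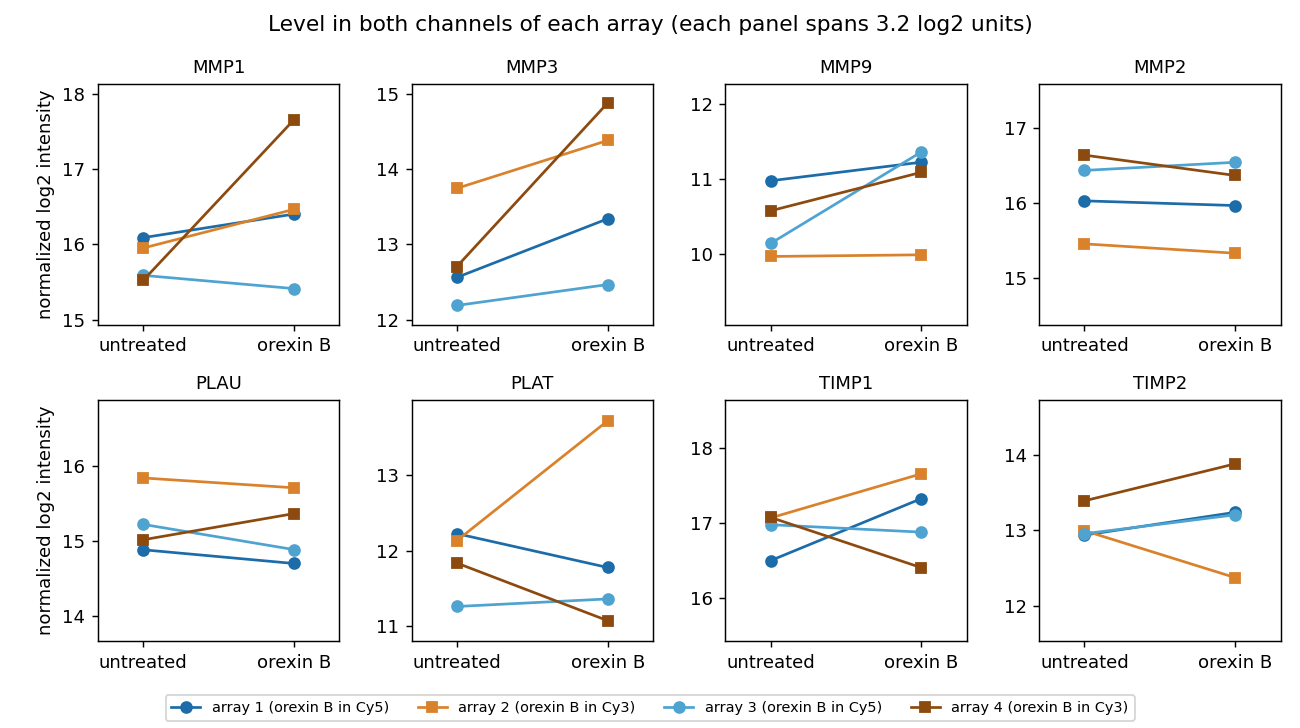
Normalized log2 intensity (vertical axis) in the untreated and the orexin B channel of each array, joined by a line, for the 8 genes; the panels have the same height in log2 units but different starting levels. For MMP1 the untreated points lie between 15.52 and 16.09 and the treated ones between 15.41 and 17.65, and for all 8 genes the treated and untreated ranges overlap.

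MMP9, a gelatinase carried by neutrophils and macrophages as well as by stromal cells, had log2 ratios of 0.25, 0.02, 1.21 and 0.51. Array 3 was highest, at 2.32-fold, and array 2 was near 0. The mean was 0.50 ± 0.20, or 1.41-fold (95% interval 0.03 to 0.97, limma unadjusted p = 0.0405, adjusted p = 0.631). Without array 3 it was 0.26 (limma unadjusted p = 0.149), and the unadjusted p was also above 0.05 without array 1 (0.0504), without array 4 (0.0931), with median centring (0.259), without moderation of the variances and with the channels fitted separately (0.161), so that MMP9 leaves the count of 2 genes in each of these fits. The dimmer probe had 0.50, -0.02, 1.79 and 0.87 in the same order of arrays and a mean of 0.78 ± 0.27 (limma adjusted p = 0.596). Both probes put the arrays in the same order, from array 3 through arrays 4 and 1 to array 2.

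Markers of cells that can carry MMP9 were read beside it. All 8 macrophage markers with a probe matched by RefSeq accession were tested and had a mean above 0, against 53.7% of all genes. Of the 8, 7 had an unadjusted limma p under 0.05 with at least 1.2-fold, all higher, against 6.27% of all genes higher. None passed the adjusted threshold. The median of the 8 was 0.61, and by array it was 0.61, 0.18, 0.85 and 0.77. Their summed log2 level ran from 12.72 to 13.99 with orexin B and from 11.96 to 13.22 without. Array 3 was highest and array 2 lowest for both the macrophage markers and MMP9. Of 5 neutrophil markers with a probe matched by RefSeq accession, 3 (S100A9 and PGLYRP1 among them) were too dim to test. The other 2 (S100A8 and S100A12) had array medians of 0.04, 1.502, -1.06 and 0.78. Their summed level was 9.44 to 12.97 with orexin B and 9.38 to 13.08 without. Both differed by dye orientation (limma unadjusted p under 0.05). The part of either cell type in the MMP9 ratio was not tested.

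MMP2, the gelatinase made by stromal and muscle cells, had log2 ratios of -0.06, -0.12, 0.11 and -0.27. These were the 4 values closest to each other of any of the 8 genes (SD 0.16). The mean was -0.09 ± 0.12 (95% interval -0.37 to 0.19, limma adjusted p = 0.882), which spans 0.776-fold to 1.14-fold. The other MMP2 probe had 0.22, -0.28, 0.20 and -0.18, with a mean of -0.01 ± 0.14. Levels of MMP2 differed more between arrays than between channels: untreated slices ran from 15.46 on array 2 to 16.64 on array 4, and treated slices from 15.33 to 16.54. MMP14, the membrane protease that activates the MMP2 precursor, had 0.03, -0.42, 0.31 and 0.04, and a mean of -0.01 ± 0.14.

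PLAU had log2 ratios of -0.18, -0.13, -0.33 and 0.35 on arrays 1 to 4. Only array 4 lay above 0. The mean was -0.08 ± 0.14 (95% interval -0.41 to 0.26, limma adjusted p = 0.919). Its second probe had -0.43, -0.41, 0.34 and 0.41, so that the probes differed in sign on array 3, by 0.67. The mean of the second probe was -0.02 ± 0.18. Untreated levels of the brighter probe ran from 14.89 on array 1 to 15.84 on array 2.

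PLAT showed the largest disagreement between arrays. The brightest probe had log2 ratios of -0.45, 1.59, 0.10 and -0.76. Arrays 2 and 4 lay furthest apart, although they carry the same dye orientation and share a slide, and among 1979 genes PLAT ranked 25th from the highest on array 2 and 1890th on array 4. The mean was 0.12 ± 0.36 (95% interval -0.72 to 0.96, limma adjusted p = 0.952), and it turned to -0.37 without array 2. The 5 tested probes gave ratios of 1.32 to 1.62 on array 2, 0.05 to 0.18 on array 3 and -0.76 to -0.70 on array 4. On array 1 they ran from -1.12 to -0.14, a wider range, but stayed below 0. The probe means ran from -0.05 to 0.18. The array differences of PLAT were thus read alike by 5 probes on 3 arrays. The other PLAT probe passed the background limit on 1 of 4 arrays per channel and was left untested.

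The level of PLAT in untreated slices was 12.23, 12.13, 11.26 and 11.84 on arrays 1 to 4 (log2 intensity, SD 0.44). With orexin B it was 11.78, 13.72, 11.36 and 11.07 (SD 1.197). Treated slices on array 2 were the brightest of all 8 channels, while the untreated slices of that array lay within the range of the others.

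**Figure D3:**
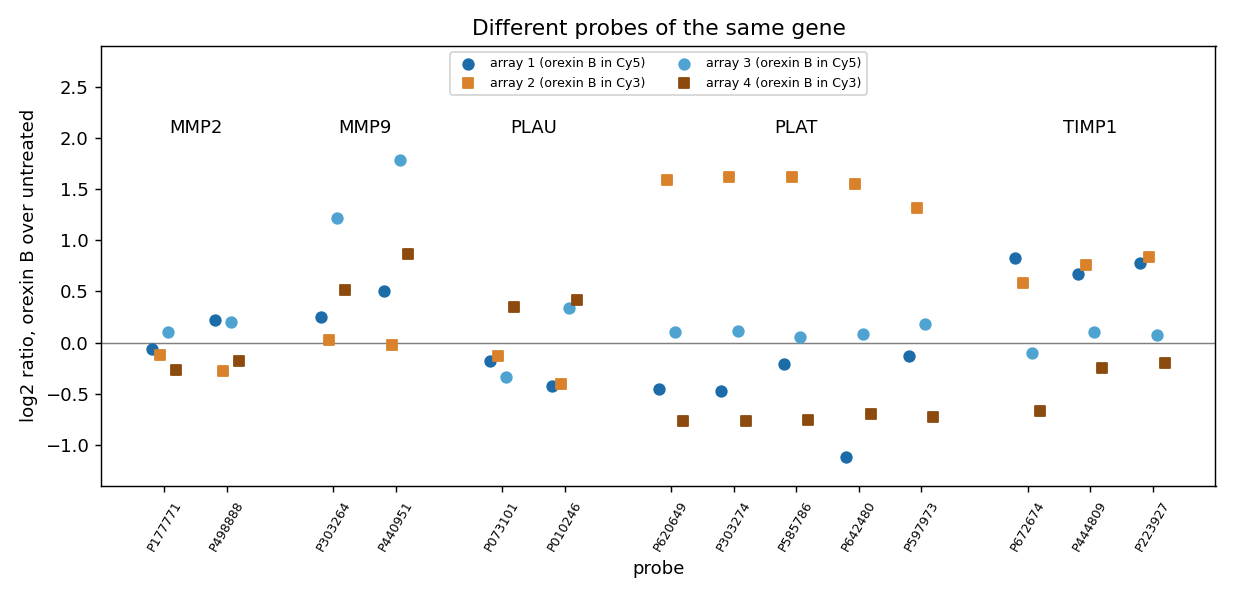
Log2 ratio of orexin B over untreated (vertical axis) for each tested probe of the 5 genes with more than 1 probe, with 1 point per array. The 5 PLAT probes lie between 1.32 and 1.62 on array 2 and between -0.76 and -0.70 on array 4, and the PLAU probes differ in sign on array 3.

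TIMP1 had log2 ratios of 0.82, 0.59, -0.10 and -0.67 on arrays 1 to 4, from its brightest probe. Arrays 1 and 2 lay above 0 and arrays 3 and 4 below. The mean was 0.16 ± 0.24 (95% interval -0.42 to 0.74, limma adjusted p = 0.894), and it turned to -0.06 without array 1. The other 2 probes had means of 0.32 ± 0.19 and 0.37 ± 0.20. They had the same sign as the brightest probe on arrays 1, 2 and 4 and lay at 0.11 and 0.07 on array 3. On array 4, where MMP1 and MMP3 were highest, the 3 TIMP1 probes ran from -0.67 to -0.20. TIMP1 levels were 16.50, 17.07, 16.98 and 17.07 in untreated slices and 17.32, 17.65, 16.88 and 16.41 in treated ones.

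TIMP2, which besides blocking MMPs takes part in activating the MMP2 precursor at the cell surface, had log2 ratios of 0.30, -0.62, 0.25 and 0.49. Array 2 alone lay below 0. The mean was 0.11 ± 0.19 (95% interval -0.35 to 0.56, limma adjusted p = 0.914), with 1 probe, and it was -0.02 without array 4 and 0.35 without array 2. The unadjusted limma p without array 2 was 0.0269, so that TIMP2 enters the count of genes under 0.05 in that fit. Untreated levels of TIMP2 were within 0.45 of each other (12.94 to 13.39), and treated levels ran from 12.37 to 13.88. The inhibitors did not follow each other: TIMP1 exceeded TIMP2 by 0.52 and 1.21 on arrays 1 and 2 and lay 0.35 and 1.16 below it on arrays 3 and 4 (differences of -0.35 and -1.16).

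Proteases were then set against inhibitors within each array, as the mean ratio of the 6 protease genes minus that of TIMP1 and TIMP2. The 6 include PLAU and PLAT, although TIMPs are inhibitors of MMPs, so this is a contrast of gene groups. The difference was -0.46, 0.44, 0.12 and 0.78 on arrays 1 to 4, with a mean of 0.22 (SD 0.52, n = 4). It lay above 0 on 3 arrays and below 0 on array 1, and its mean was smaller than its spread. Array 1 is the array off the shared slide, so slide and replicate cannot be told apart there. Without array 4 the mean difference was 0.03 and without array 1 it was 0.44. The proteases alone had 0.11, 0.42, 0.20 and 0.69, above 0 on all 4 arrays, and the inhibitors 0.56, -0.02, 0.08 and -0.09. No test was made of these means, since the genes were chosen with earlier results known.

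The enzyme classes were also set against the inhibitors one by one, and the difference between classes was not tested. The 4 MMPs exceeded the inhibitors by -0.24, 0.28, 0.28 and 1.22 (mean 0.39, SD 0.61), and by 0.11 on average without array 4. The plasminogen activators differed from them by -0.88, 0.75, -0.19 and -0.12 (mean -0.11, SD 0.67), so that the class means lay within their spread and array 2 put the activators above the MMPs. Since TIMPs are inhibitors of MMPs, the contrast with the activators is no balance of enzyme and inhibitor. MMP1 and MMP3 together exceeded the inhibitors by -0.02, 0.59, -0.03 and 2.24, and the other 4 proteases by -0.67, 0.36, 0.20 and 0.04. This split was not planned and sets apart the genes already seen to be highest on array 4. Its value on that array therefore follows from the choice.

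Enzymes were also paired with an inhibitor that binds them. MMP3 minus TIMP1 was -0.05, 0.05, 0.38 and 2.84, and MMP1 minus TIMP1 was -0.51, -0.07, -0.08 and 2.80. Without array 4, which lay far above the others in both, the means were 0.13 and -0.22. These and the following pairs were chosen after their values were seen. MMP9 minus TIMP1 was -0.58, -0.56, 1.31 and 1.18, negative on arrays 1 and 2 and positive on arrays 3 and 4. MMP2 minus TIMP2 was -0.36, 0.50, -0.14 and -0.76, with a mean of -0.19 (SD 0.53).

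**Figure D4:**
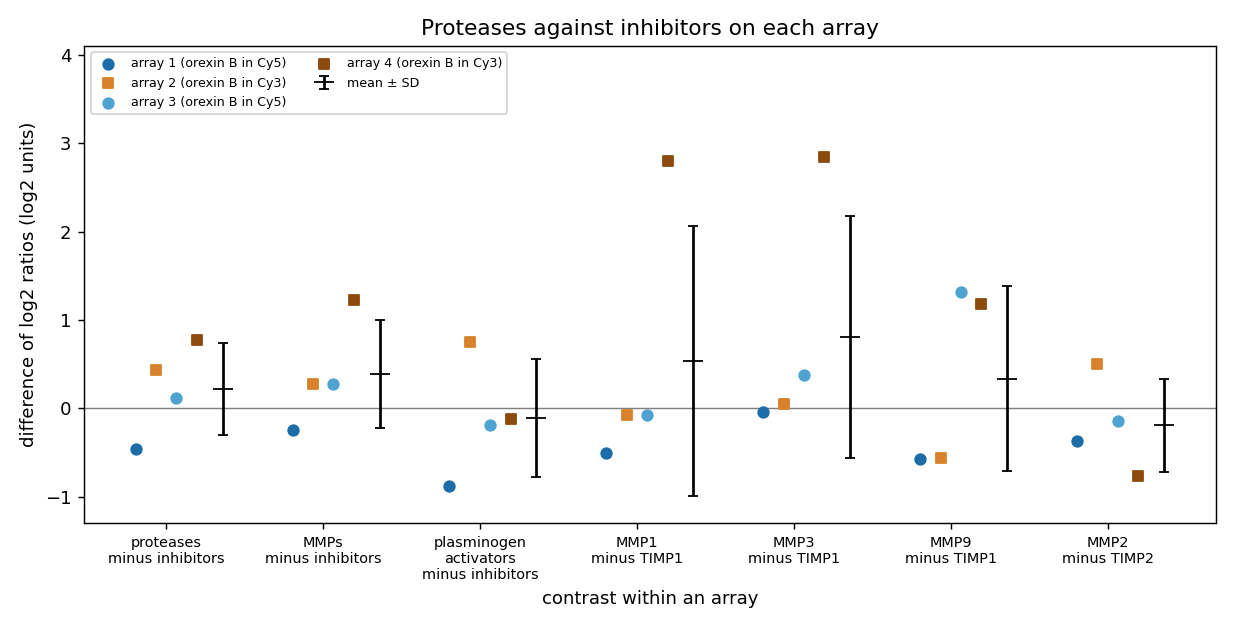
Difference of log2 ratios within an array (vertical axis) for proteases against inhibitors and for single enzymes against the inhibitor that binds them, with 1 point per array and the mean with its SD in black. The points of MMP1 minus TIMP1 and MMP3 minus TIMP1 lie between -0.51 and 0.38 except on array 4, where they are 2.80 and 2.84.

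The members were then read by dye orientation. With orexin B in Cy5, MMP1 had a mean of 0.07, and with it in Cy3, of 1.32, a difference of -1.25 ± 0.51 (Cy5 minus Cy3, limma unadjusted p = 0.0458). MMP1 was the 1 gene of 8 at this threshold, which is the same share as the 12.5% of all tested probes, and 0 of 8 members and 0% of probes passed the adjusted threshold for dye. MMP3 had means of 0.53 and 1.40, and MMP9 had 0.73 and 0.27. For PLAT they were -0.17 and 0.41, which average 2 opposed arrays in Cy3. With arrays only centred on their median, 5 of 8 members passed the adjusted limma threshold for dye, as did 46.4% of all probes: MMP2 (2.61), TIMP1 (3.01), TIMP2 (2.02), PLAU (1.82) and MMP9 (1.605), with adjusted p from 0.000936 to 0.0103. In that setting the difference turned to 1.16 for MMP1 and 0.88 for MMP3. With 2 arrays per orientation, dye and animal cannot be told apart.

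The other genes of the matrix protease system were read from lists, and no gene on them passed the adjusted threshold (limma). Of 5 tested ADAM and ADAMTS genes, membrane and matrix proteases of a related family, 4 had a mean above 0, with a list median of 0.11. ADAM17, the sheddase that releases TNF, had 0.37, 0.75, 0.34 and 0.17 (mean 0.41 ± 0.13, limma unadjusted p = 0.0182, adjusted p = 0.596). Its other probes had means of 0.15 and -0.03. ADAM9 had 0.08, 0.50, 0.22 and 0.54 (mean 0.33 ± 0.13, limma adjusted p = 0.624). Of 7 cathepsins, lysosomal proteases, 4 lay above 0, and the highest mean was 0.23 ± 0.17 for CTSB and the lowest -0.22 ± 0.14 for CTSA.

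Of 19 further MMP genes listed, 3 had a probe matched by RefSeq accession and 2 were tested. Whether unmatched probes read the others was not tested. MMP12 had a mean of 0.93 ± 0.39 (limma unadjusted p = 0.0483, adjusted p = 0.645), and MMP14 is described above. Of 6 further inhibitors, 4 lay below 0 (median -0.08, but 0.05 with processed signals or the series table and 0.07 without array 3), and SERPINH1, a collagen chaperone of the serpin family, had a mean of 0.19 ± 0.14. Of the plasminogen system beyond its activators, PLG, KLKB1 and F12 were too dim to test, and the plasminogen-binding proteins ANXA2 and PLGRKT had -0.15 ± 0.18 and -0.11 ± 0.11.

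**Figure D5:**
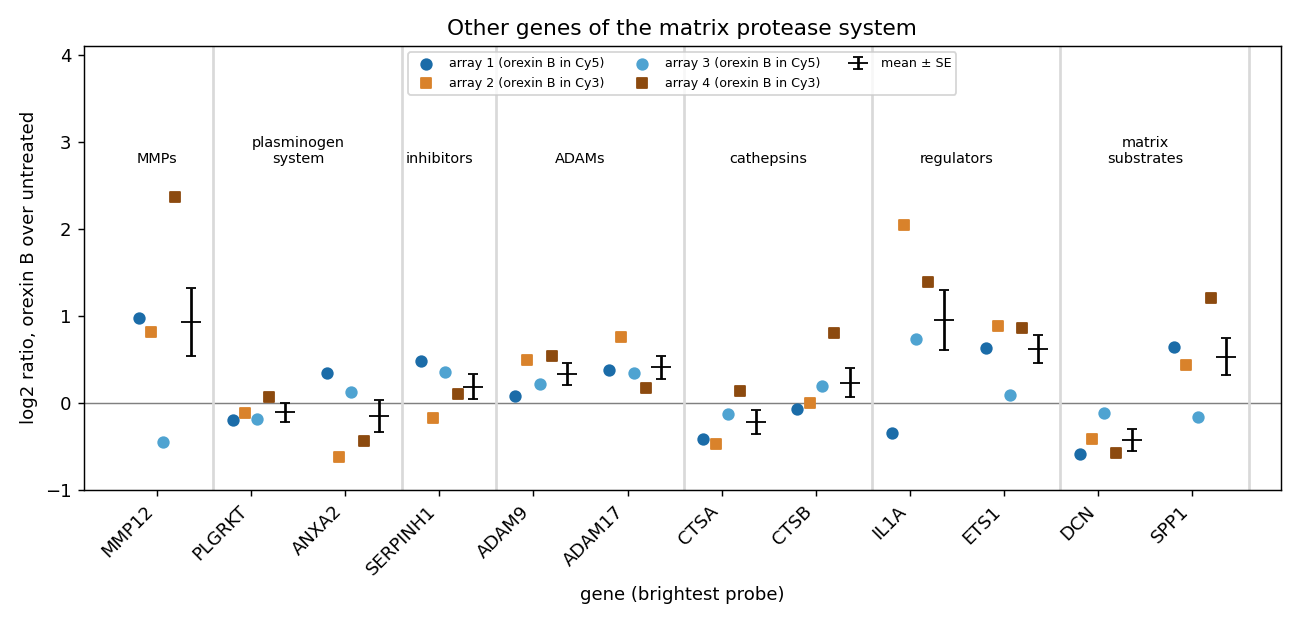
Log2 ratio of orexin B over untreated (vertical axis) for the brightest probe of 12 further genes of the matrix protease system. Genes are grouped by list, with 1 point per array and the mean with its SE in black. MMP12 reaches 2.37 on array 4 and lies at -0.45 on array 3, ETS1 and ADAM17 lie above 0 on all 4 arrays, and DCN lies below 0 on all 4.

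Among 12 regulators of MMP expression, 7 lay above 0 (median 0.05), and 2 had an unadjusted limma p under 0.05 with at least 1.2-fold, both higher (2 of 12, against 6.27% of all genes higher). ETS1, a transcription factor that acts on several protease promoters, had 0.63, 0.89, 0.09 and 0.85 (mean 0.62 ± 0.16, limma unadjusted p = 0.00621, adjusted p = 0.596). The cytokine IL1A, an inducer of MMP1 and MMP3 in stromal cells, had -0.35, 2.04, 0.73 and 1.39 (mean 0.95 ± 0.35, limma adjusted p = 0.607). Its mean was 0.19 with orexin B in Cy5 and 1.71 in Cy3 (limma unadjusted p for the difference = 0.00806). IL1A was highest on array 2, and MMP1 and MMP3 were highest on array 4. A link between IL1A and these genes was not tested. The AP-1 subunits FOS and JUN had -0.17 ± 0.28 and -0.24 ± 0.17.

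Of 6 matrix proteins that the proteases can cut or bind, 5 lay below 0, with a list median of -0.41 and array medians of -0.02, -0.45, 0.06 and -0.77. Of all genes, 53.7% lay above 0. LAMC1 had a mean of -0.31 by its brightest probe, but 0.05 and 0.04 by its dimmer ones. VCAN had 0.16, -0.16, 0.53 and -2.27, so that its mean of -0.44 rests on array 4. The proteoglycan DCN (decorin) had -0.59, -0.42, -0.12 and -0.58 (mean -0.43 ± 0.13, limma unadjusted p = 0.0127, adjusted p = 0.596). Its dimmer probes had means of -0.62, -0.34 and -0.31, and on array 3 they had -0.23, 0.02 and 0.18. SPP1 (osteopontin) was the exception, at 0.64, 0.43, -0.16 and 1.21 (mean 0.53 ± 0.21, limma adjusted p = 0.631). The substrate list shares DCN, LUM and COL1A2 with the 3 tested fibroblast markers, whose array medians were -0.12, -0.81, 0.11 and -0.95, and its lowest arrays, 4 and 2, were also those of the smooth muscle genes, and both carried orexin B in Cy3. By dye orientation the substrate median was 0.10 in Cy5 and -0.71 in Cy3, and 3 of the 6 genes (COL1A2, LUM and VCAN) had an unadjusted limma p under 0.05 for that difference, DCN not among them. The part of these cell markers in the values was not tested.

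The genes most like a member were sought by the root mean square difference of the 4 ratios among 1929 named genes that are not members. Nearest to MMP3 were GDF15, a stress-induced cytokine (0.36, with ratios of 0.34, 0.13, 0.01 and 2.17), MMP12 (0.40) and the membrane protein EMP1 (0.44). Nearest to PLAT were CWF19L2 (0.35), TM2D2 (0.47) and CD47 (0.47), all highest on array 2. Nearest to TIMP1 were MYOG (0.14), CALCB (0.16) and FCGR2B (0.22), which like TIMP1 were highest on array 1 and lowest on array 4. All these genes were picked for likeness of the same 4 ratios, so a shared array order is no separate finding. 

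The members differed in how much they varied between arrays. By the range from the lowest to the highest array, PLAT ranked 44th, MMP1 47th, MMP3 80th, TIMP1 160th, MMP9 309th and TIMP2 372nd among the 1979 genes with a tested probe, while PLAU ranked 923rd and MMP2 1599th. The SD over arrays was 0.29 for PLAU and 0.16 for MMP2, beside a median of 0.29 over these genes. The arrays that stood highest differed by gene: array 4 for MMP1 and MMP3, array 3 for MMP9, array 2 for PLAT and array 1 for TIMP1.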

How the data were processed

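Each array was scanned in 2 colours, and the authors deposited spot intensity values (median brightness of spot and local background, green and red) that the scanner software wrote, namely Agilent's Feature Extraction in version 10.7.3.1 according to the deposited headers. Processed signals and the log10 of red divided by green stand in the same deposited files, per the file headers, together with other columns that hold flags, which were used to leave out marked spots. The deposited series table holds log2 ratios; on each array 100% of its values lay within 0.05 of the log2 ratio of the processed signals turned to orexin B over untreated, so its direction follows the dye fields, and its column medians were -0.27, -0.08, -0.20 and -0.09. All of its columns were mapped to samples.

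The protocol text in the labels names untreated RNA in Cy3, while the dye fields give it Cy5 on arrays 2 and 4; the dye fields were followed. With R 4.3.3 and limma 3.58.1, the background was corrected by normexp (offset 50), loess was run within each array (control spots weighted 0), marked spots (31 to 138 per array) were left out, spots of a probe were averaged, and levels were scaled by Aquantile. No spot was saturated. Tested probes had to pass the background limit in 1 channel on all 4 arrays and be unmarked on at least 3. An intercept model (lmFit, eBayes) gave two-sided p-values, adjusted over all tested probes. In simulated ratios of orexin B over untreated with the real spread of 19708 probes, 46.3% of probes shifted by 1 and 86.4% of those shifted by 2 on the log2 scale passed.

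Of all probes, 6700 matched a gene of the Sscrofa11.1 table by RefSeq accession; as the files name no build, coordinates are not printed. Sequences were not used here. All members were named; of each other list, genes with an unadjusted p under 0.05 and 1.2-fold, otherwise the 2 with the smallest p; and the 3 genes nearest to the member with the largest mean in each class. MMP14, FOS, JUN, the enzyme and inhibitor pairs, and the split of MMP1 and MMP3 from the other proteases were added after their values were seen. LAMC1, VCAN, COL1A2, LUM, the dim genes and the cell markers were also named outside the naming rule. Some results of the rule are not reported here. Members and lists were chosen with earlier results of these data known. Alternatives covered background, normalization, filter, test, dye, slide, direction, channel pairing, probe choice and each array left out. Figures used Python 3.11.15 and matplotlib 3.10.9.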

Additional observations from a re-analysis of the deposited data

Results flagged for a closer look

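In 58 sets of 4 array values (member probes, other named genes, contrasts and list medians), 2 held a value far from the other 3 by Dixon's test at 95%, where chance gives 2.9. Both are pairs that were chosen after the values were seen. MMP1 minus TIMP1 was 2.80 on array 4, with a gap of 0.868 of its range to the nearest other array. MMP3 minus TIMP1 was 2.84 on the same array, with a gap of 0.854. Both share the TIMP1 value of that array, and neither MMP1, MMP3 nor TIMP1 was far from the rest on its own.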

How the results depend on the processing

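None of the fits of the orexin B ratio gave a probe past the adjusted threshold (smallest adjusted p 0.0783, with slide as a random block). The count at an unadjusted p under 0.05 and 1.2-fold, 1528, was 177 with median centring (172 higher, 5 lower, against 853 and 675), 675 in the unmoderated test, 2372 with dye as a further term, 3372 with slide as a random block (estimated correlation -0.26), and 726 to 1922 with 1 replicate left out. Each array pairs its own treated and untreated RNA; channels fitted with no replicate block gave 494. MMP3 ran from 0.80 (median centring) to 1.03, and 0.56 to 1.195 with 1 replicate left out. Proteases minus inhibitors ran from 0.03 to 0.44 with 1 replicate left out. Read as Cy5 over Cy3 on every array, it was -0.39, and MMP1, MMP2, MMP3 and PLAT turned to -0.63, 0.11, -0.44 and -0.29. With 1 replicate left out, TIMP1 ran from -0.0598 to 0.44 (lowest without replicate 1, which is also the shared slide alone), PLAT from -0.37 to 0.414 (lowest without replicate 2), PLAU from -0.216 to 0.0116 (highest without replicate 3) and TIMP2 from -0.0233 to 0.348 (lowest without replicate 4), each turning sign in that 1 fit. Reading each further probe of a gene by itself, which was chosen after seeing the data, turned PLAT to -0.0475 for 1 of its 4 further probes. The difference between dye orientations turned for TIMP1 with processed signals and with the series table (both -0.0042), and with median centring for MMP1 (1.16), MMP3 (0.88), PLAT (0.89) and PLAU (1.82, now past the adjusted limma threshold). MMP2 (2.61), TIMP1 (3.01), MMP9 (1.605) and TIMP2 (2.02) kept their sign there and passed it too, with 46.4% of all probes. The cause was not tested. In the simulation, 0% of the 67 probes shifted by 0.5 passed. Its shares hold for 200 shifted probes among 19708 with independent normal spread. The members varied more between arrays (median SD 0.60) than all genes (0.29), so the shares do not carry over to them.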
